A study of Mus musculus with 24 samples.

Results

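The data described here are the 6 arrays of 2 mouse lung tumour lines, cRAF_cMYC (tumour cell line 6 in the labels) and gammaA7 (line 8), out of 24 arrays in all. They were set as one pool against the 9 other tumour lines of the study (A2B1, A2C12, B3, betaD5, betaD10, gammaA3, gammaB8, gammaD1 and gammaD12; 16 arrays). All 11 lines were grown out of lung tumours of 8-month-old mice carrying both a c-Myc and a c-Raf transgene. They were kept in DMEM with 10% fetal calf serum and passaged weekly for up to 50 passages. The remaining 2 arrays hold alveolar type II cells of healthy non-transgenic animals and serve as a reference for levels only. Each pool line has 3 arrays, 1 whose title carries no number (called unnumbered here) and replicates 1 and 2. Arrays entered the pool by their line label, but the 2 lines were put together with the measured likeness of their arrays known. The repeat arrays of these 2 lines may have been exchanged, so the comparison was built not to depend on which of the 2 lines an array belongs to, and single arrays are shown throughout. The labels used here name no transgene promoter, each line stands for itself, and nothing in the labels says that repeat arrays came from separate cultures. The line called gammaB8 in its titles is called gammaA8 in another label field.

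c-Raf is a kinase that passes signals from Ras to MEK and ERK, and ERK in turn controls growth-factor response genes and their feedback inhibitors. c-Myc is a transcription factor that binds E-box DNA with its partner Max and raises ribosome production, metabolism and division. Alveolar type II cells, which make lung surfactant, are the cells from which tumours are known to arise when Raf is activated in the lung.

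Among the 6 arrays, likeness did not follow the line names, which was known when the pool was formed and is given as a description. Each probe set was centred over the tumour arrays on the log2 scale and arrays were compared by Pearson's r. Replicate 2 of cRAF_cMYC and replicate 2 of gammaA7 correlated at 0.844, and between them 33 of the 7215 probe sets tested differed by 2-fold or more. Replicate 1 of cRAF_cMYC and replicate 1 of gammaA7 correlated at 0.754 (34 such probe sets). Under one line name, replicates 1 and 2 correlated at -0.029 for cRAF_cMYC (436 such probe sets) and at -0.012 for gammaA7 (428). In the 3 other lines with both replicates, replicates 1 and 2 of a line correlated at 0.902 (A2C12), 0.826 (B3) and 0.702 (gammaB8), with 20 to 63 such probe sets. The unnumbered cRAF_cMYC array was nearest to the replicate 2 arrays (0.418 with cRAF_cMYC, 0.396 with gammaA7), and the unnumbered gammaA7 array was near none of the other 5 (at most 0.056). Low values between unnumbered and numbered arrays of a line were also seen in B3 (0.024 and 0.101) and gammaB8 (-0.125 and -0.196). In A2C12 (0.607 and 0.642) and A2B1 (0.330) they were higher. These correlations are over probe sets within array pairs and describe these arrays only. The pairs between the 2 lines that share a replicate number were thus as alike as replicates 1 and 2 of 1 line elsewhere in the study.

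**Figure D1:**
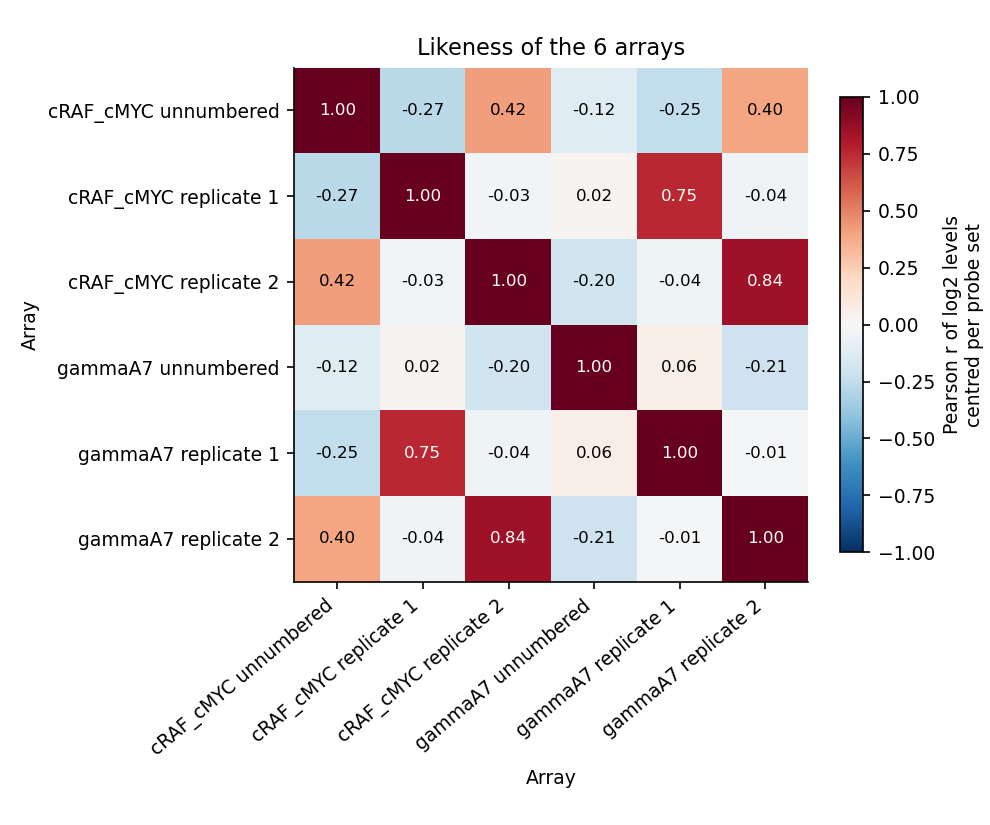
Pearson correlation between the 6 arrays, over 7215 tested probe sets, of log2 levels centred per probe set over the tumour arrays (both axes: arrays; colour and number: r). The highest off-diagonal values are 0.84 between the replicate 2 arrays and 0.75 between the replicate 1 arrays of the different lines.

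Of 3 Y-linked genes looked at, 1 had signal on some of the 6 arrays. Eif2s3y, which encodes a translation initiation factor subunit and was looked at after the values were seen, gave 77.7 on the unnumbered cRAF_cMYC array, 151 on cRAF_cMYC replicate 2 and 87.8 on gammaA7 replicate 2. It gave 3.10 on cRAF_cMYC replicate 1, 1.92 on the unnumbered gammaA7 array and 9.54 on gammaA7 replicate 1, and no array of the 9 other lines had more than 16.6. Of the 6 arrays, 3 were therefore above every other line and 3 were not. The other Y-linked genes did not divide the arrays in this way. Kdm5d was at 3.26 to 12.1 on the 6 arrays, and Uty at 1.28 to 19.03, with 12.2 on cRAF_cMYC replicate 1 and 10.3 on the unnumbered cRAF_cMYC array, and neither was tested for lack of signal. The X-linked Xist, which is made from an inactive X chromosome, gave 145, 81.4 and 25.5 in cRAF_cMYC and 158, 79.7 and 44.6 in gammaA7, so the 2 unnumbered arrays were alike. Eif2s3y has an X-linked relative, and the part of cross-hybridisation in these signals was not tested.

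The labels describe 1 isolation procedure for tumour cells and type II cells, and marker genes of lung cell types were looked at in the pool. The 7 type II markers on the array that were not tested for lack of signal, among them the surfactant proteins Sftpb and Sftpc, had at most 36.2 on any of the 6 arrays, where control 2 had 7067 for Sftpb and 11196 for Sftpc. The summed signal of the 9 type II markers on the array was 175 to 245 in the pool, 106 to 197 in the 9 lines, and 4129 and 35732 in the controls. Club cell secretoglobin Scgb1a1 had at most 25.0 and the macrophage gene Lyz2 at most 13.0 on the 6 arrays. These named markers were near the floor in the pool, but the lists they come from were mixed. The club cell list also holds Hp (46.2 to 809) and the myeloid list Cd14 (386 to 1061). Of the fibroblast list, Col1a1 had 4363 to 8812, while Tcf21, Gli1 and Inmt had at most 34.6 on any of the 6 arrays.

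The comparison asked how the 2 lines together differ from the other tumour lines. It called 12 probe sets higher and 0 lower of 7215 tested. A call needed a Benjamini-Hochberg adjusted p under 0.05 in limma and at least a 2-fold difference of log2(signal + 32). The calls are 0.166% of the probe sets in the higher direction and 0% in the lower. At an unadjusted p under 0.05 there were 334 probe sets (4.63%), 226 higher and 108 lower. The median difference of all 7215 was -0.0049 on the log2 scale. The 12 probe sets stand for 11 genes and 1 probe set without a gene symbol. The genes encode the secreted or matrix proteins Cck, Fst, Mdk, Cxcl5, Pla2g7 and Tnc, the retinoid proteins Crabp1 and Adh7, the surface protein Tpbg, the transcription factor Lhx8 and the interferon-inducible Ifi202b.

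Most of the called probe sets were high on some of the 6 arrays and not on others. Of the 12 probe sets, 11 were above the highest of the 9 lines on the unnumbered cRAF_cMYC array, where 8.02% of all tested probe sets were. On the replicate 2 arrays all 12 were above it, against 14.8% of all probe sets in cRAF_cMYC and 16.0% in gammaA7. On each replicate 1 array 3 of the 12 were above it (all probe sets: 12.8% in cRAF_cMYC, 11.6% in gammaA7), and on the unnumbered gammaA7 array 2 (all probe sets: 9.40%). Over the 7215 probe sets, exactly 3 of the 6 arrays were above the highest line for 5.71%, exactly 4 for 2.90%, exactly 5 for 1.07% and all 6 for 0.249%. Without the unnumbered cRAF_cMYC array 10 of the 12 were still called, and without replicate 2 of cRAF_cMYC or of gammaA7 4 and 3 were. The fit takes its error from the 9 other lines and not from the 6 arrays. Of the 12 probe sets, 7 were above the array median on no array of the other lines (Cck, Mdk, Cxcl5, Pla2g7, Lhx8, Ifi202b and the probe set without a symbol). These 7 entered the test only through pool arrays on which they were high, and their error is that of values near the floor, so their differences are given below as descriptions with no p. Crabp1 was above the median on 1 array of the other lines, short of the 2 the filter needs, and is given in the same way. Without a filter 11 of the 12 were called. With an offset of 1 in place of 32 the calls kept were Fst and, of the 7, Cck and Mdk. With the 6 arrays as single units and 1 shared spread, an alternative added after the data were seen, none of the 12 passed and 2 other probe sets did, 1 of them matrix Gla protein (Mgp). With all 22 arrays and the line as a random block, 0 probe sets were called in limma, with 462 at an unadjusted p under 0.05.

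Promoter sequences are shown for the 3 largest called differences that have an entry in RefSeq's table for GRCm38.p6, so that the elements near the start of these genes can be read. Of the 11 called genes, 8 have an entry. Each run is the 250 bases before the start, 5′ to 3′ on the gene's strand. Capitals mark matches, on either strand, to the E-box CACGTG, the cyclic AMP response element variant TGCGTCA, the TATA box TATAAA and the GC box GGGCGG.

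Cck, chr9:121495695-121495944, minus strand: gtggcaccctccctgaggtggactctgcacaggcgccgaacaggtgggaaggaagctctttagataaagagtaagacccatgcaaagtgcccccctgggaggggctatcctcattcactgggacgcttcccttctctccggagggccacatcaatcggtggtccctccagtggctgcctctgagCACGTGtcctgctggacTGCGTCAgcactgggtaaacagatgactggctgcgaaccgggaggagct
Crabp1, chr9:54764498-54764747, plus strand: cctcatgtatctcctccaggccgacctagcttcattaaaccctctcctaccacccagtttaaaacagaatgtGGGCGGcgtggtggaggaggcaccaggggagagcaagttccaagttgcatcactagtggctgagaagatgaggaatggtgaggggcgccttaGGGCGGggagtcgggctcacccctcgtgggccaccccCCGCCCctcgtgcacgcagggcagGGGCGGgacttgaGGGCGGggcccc
Tnc, first of 2 listed starts, chr4:64047016-64047265, minus strand: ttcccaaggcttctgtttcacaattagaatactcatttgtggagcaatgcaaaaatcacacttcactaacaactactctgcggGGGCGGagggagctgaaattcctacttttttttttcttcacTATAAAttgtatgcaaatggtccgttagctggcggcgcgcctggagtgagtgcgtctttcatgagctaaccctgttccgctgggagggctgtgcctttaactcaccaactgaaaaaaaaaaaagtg

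Only Cck of the 8 genes held CACGTG, whose first base lies 66 bases before the start, with TGCGTCA 49 bases before it. Of 32851 mouse promoters of this length, 6.02% hold CACGTG and 1.75% hold TGCGTCA. Crabp1 held 5 matches to GGGCGG, a motif in 32.7% of promoters, and 12 CpG pairs against a median of 6. TATAAA, in 12.4% of promoters, was found in Tnc and Adh7. Matches are descriptions of the letters and not binding sites.

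Cck, which encodes the peptide hormone cholecystokinin, had the largest difference. Its signals on the unnumbered, replicate 1 and replicate 2 arrays were 2248, 15.1 and 3868 in cRAF_cMYC and 15.9, 9.20 and 4538 in gammaA7. The 9 lines had 5.40 to 18.4. The 3 bright arrays were far above every line mean and the other 3 lay among the lines, so the pool's mean describes no single array. The log2 difference was 3.31, while the SD over the 6 arrays was 3.44 on the log2 scale against 0.14 over the 9 lines.

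Fst, which encodes follistatin, an extracellular inhibitor of activins, was the one called gene with all 6 arrays above all lines. Its signals, in the same order of arrays, were 3256, 72.3 and 1483 in cRAF_cMYC and 137, 98.2 and 1386 in gammaA7, against 16.5 to 56.9 in the 9 lines. The log2 difference was 3.04 (SE 0.22, limma adjusted p = 1.96e-05). All 6 arrays exceeded the lines, though the lowest did so by little. Fst was also the single gene still called under a stricter filter that needs signal on 6 of the 22 tumour arrays. It was above the array median on all 6 pool arrays and on 2 arrays of the other lines. It thus met the stricter filter only with the pool arrays, so this call is a description and no support. Of the 12 probe sets, 8 were not tested under that filter, and Adh7, Tpbg and Tnc were tested and not called (limma adjusted p = 0.110 to 0.124).

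Mdk, the gene of the heparin-binding growth factor midkine, had signals of 495, 10.0 and 409 in cRAF_cMYC and 6.33, 13.5 and 557 in gammaA7. The 9 lines had 8.14 to 14.0. The log2 difference was 1.76. It was high on the same 3 arrays as Cck and at the level of the lines on the others. Cck, Fst and Mdk were also the 3 genes called without gammaA7 replicate 2. For Cck and Mdk, which entered the test only through pool arrays, this is a description and no support.

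Cxcl5, a chemokine that attracts neutrophils, gave 663, 10.7 and 275 in cRAF_cMYC and 9.01, 9.79 and 316 in gammaA7, against 7.57 to 46.0 in the lines (log2 difference 1.52). Pla2g7, a secreted enzyme that breaks down platelet-activating factor, gave 16.4, 14.2 and 622 in cRAF_cMYC and 2.32, 3.78 and 595 in gammaA7, against 2.25 to 27.4. Cxcl5 was brightest on the unnumbered cRAF_cMYC array, while Pla2g7 was low there and high on the replicate 2 arrays alone. The log2 difference of Pla2g7 was 1.33.

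Tenascin C, a matrix glycoprotein encoded by Tnc, gave 1349, 66.9 and 755 in cRAF_cMYC and 250, 66.5 and 670 in gammaA7. The 9 lines had 37.2 to 162. All but the replicate 1 arrays were above every line. The log2 difference was 1.76 (SE 0.31, limma adjusted p = 0.0436). A second Tnc probe set passed the adjusted p (0.0197 in limma) but, with a log2 difference of 0.96, was just under 2-fold, and the call on the first was lost under quantile normalization.

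Of the retinoid genes, Crabp1, which binds retinoic acid in the cytosol, gave 189, 2.27 and 1961 in cRAF_cMYC and 17.1, 3.65 and 2101 in gammaA7, against 2.69 to 47.0 in the lines. Its log2 difference was 2.15. Adh7, an alcohol dehydrogenase that oxidises retinol, gave 218, 144 and 261 in cRAF_cMYC and 58.9, 180 and 322 in gammaA7, against 52.8 to 101. Crabp1 was thus far brighter on the replicate 2 arrays than on the unnumbered cRAF_cMYC array. Adh7 was above all lines on 5 of the 6 arrays, with a log2 difference of 1.07 (SE 0.18, limma adjusted p = 0.0283).

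The surface glycoprotein gene Tpbg also exceeded all lines on 5 of 6 arrays, by little on 2 of them: 171, 104 and 451 in cRAF_cMYC and 94.6, 110 and 421 in gammaA7, against 43.3 to 95.4 (log2 difference 1.09, SE 0.19, limma adjusted p = 0.0436). Lhx8, a homeobox transcription factor of the developing brain and teeth, gave 88.3, 12.9 and 295 in cRAF_cMYC and 0.978, 2.45 and 233 in gammaA7, against 1.39 to 17.4 in the lines. Ifi202b gave 74.5, 3.04 and 202 in cRAF_cMYC and 3.57, 0.535 and 188 in gammaA7, against 0.919 to 8.06. Both were seen on the 3 arrays that carried Cck and were near the floor elsewhere. The log2 differences were 1.22 for Lhx8 and 1.15 for Ifi202b. Ifi202b belongs to a family of near-identical genes that this probe set may not separate.

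**Figure D2:**
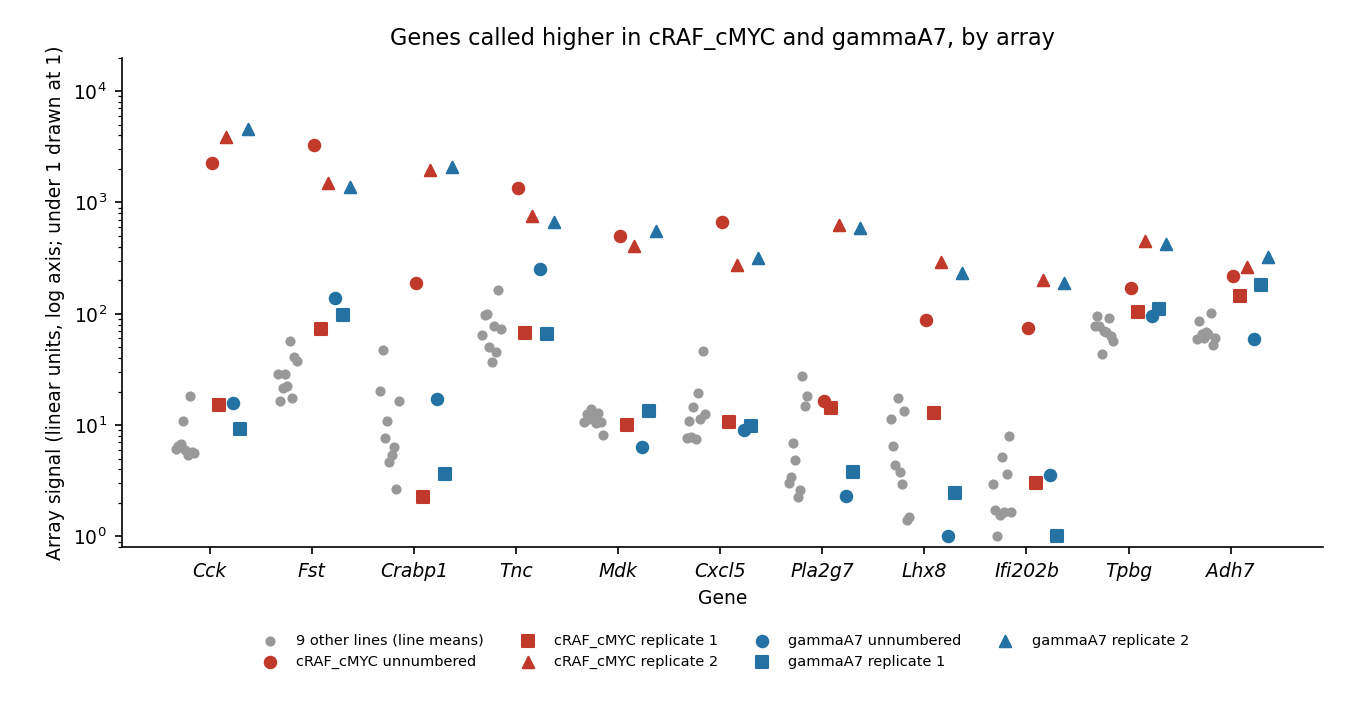
Signals of the 11 called genes (linear units on a log axis) on each of the 6 arrays of cRAF_cMYC (red) and gammaA7 (blue), beside the means of the 9 other lines (grey). For Cck, 3 arrays lie at 2248 to 4538 and the other 3 at 9.20 to 15.9, among the lines at 5.40 to 18.4.

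Each array was then set by itself against the 9 lines, assuming that a single array varies like a line. A single array has no spread of its own, so the counts describe these arrays and are no test of a line. The unnumbered cRAF_cMYC array had 30 probe sets called higher (0.416%) and 4 lower (0.0554%). cRAF_cMYC replicate 2 had 50 higher (0.693%) and 17 lower (0.236%), and gammaA7 replicate 2 had 54 (0.748%) and 19 (0.263%). The other 3 arrays had 1 call each (0.0139%), all higher. That single call was the eosinophil chemokine Ccl11 on both replicate 1 arrays (111 in cRAF_cMYC and 123 in gammaA7, lines 1.55 to 15.0) and smooth muscle gamma actin (Actg2) on the unnumbered gammaA7 array (1396, lines 151 to 403). Ccl11 entered the test only through the replicate 1 arrays and had at most 38.7 on the other pool arrays. Its error is that of values near the floor, so its calls are no support. All 6 contrasts use the same 9 lines, so the counts share their reference.

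No probe set was called lower in the pool, and the genes named here are the 10 lowest adjusted p-values among those at least 2-fold lower. Over all probe sets, 19 were at least 2-fold lower (0.263%) and 55 at least 2-fold higher (0.762%). Exactly 3 of the 6 arrays were below the lowest line for 5.06% of probe sets, exactly 4 for 2.26% and exactly 5 for 0.596%. Parm1, an androgen-regulated membrane protein, gave 26.1, 51.8 and 2.69 in cRAF_cMYC and 364, 38.8 and 8.07 in gammaA7, against 117 to 358 in the lines. The unnumbered gammaA7 array was above all lines and the other 5 were below them. Its log2 difference of -1.58 (SE 0.30) had a limma adjusted p of 0.065, and 0.00763 without that array. Sema3c, a secreted guidance molecule, gave 170, 276 and 64.4 in cRAF_cMYC and 621, 253 and 65.3 in gammaA7, against 295 to 612. It was arranged like Parm1, with a log2 difference of -1.17 (SE 0.24, limma adjusted p = 0.11).

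The other 8 of these 10 genes had log2 differences from -1.77 (Vnn1) to -1.01 (Rab3b) and limma adjusted p-values from 0.178 (Tuft1) to 0.994 (Lgals3). Cast, which encodes the calpain inhibitor calpastatin, gave 493, 219 and 248 in cRAF_cMYC and 286, 187 and 186 in gammaA7, against 351 to 909. It was below all lines on 5 arrays, though its difference of -1.02 (SE 0.30) had a limma adjusted p of 0.61. Ptprb, Vamp5, Vnn1, Rab3b and Lgals3 were below all lines on 3 arrays each. For the vesicle gene Rab3b these were the unnumbered cRAF_cMYC array (15.5) and the replicate 2 arrays (6.80 and 7.22), where the lines had 70.6 to 270. For galectin-3, Lgals3, they were the other 3 arrays, with 14.3 on cRAF_cMYC replicate 1, 11.0 on the unnumbered gammaA7 array and 3.06 on gammaA7 replicate 1. Its signals on the arrays that carried Cck were 1521, 2098 and 1952, within the 418 to 5091 of the lines.

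Foxa2, a forkhead factor of lung epithelium named after its values were seen, gave 122, 463 and 81.0 in cRAF_cMYC and 531, 402 and 120 in gammaA7, against 404 to 545 in the lines. It was low on the 3 arrays that carried Cck and at or just under the level of the lines on the others. Its difference of -0.97 (SE 0.16) passed the adjusted p (0.0264 in limma) but was under 2-fold. This was the one lower probe set that passed without a fold threshold.

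**Figure D3:**
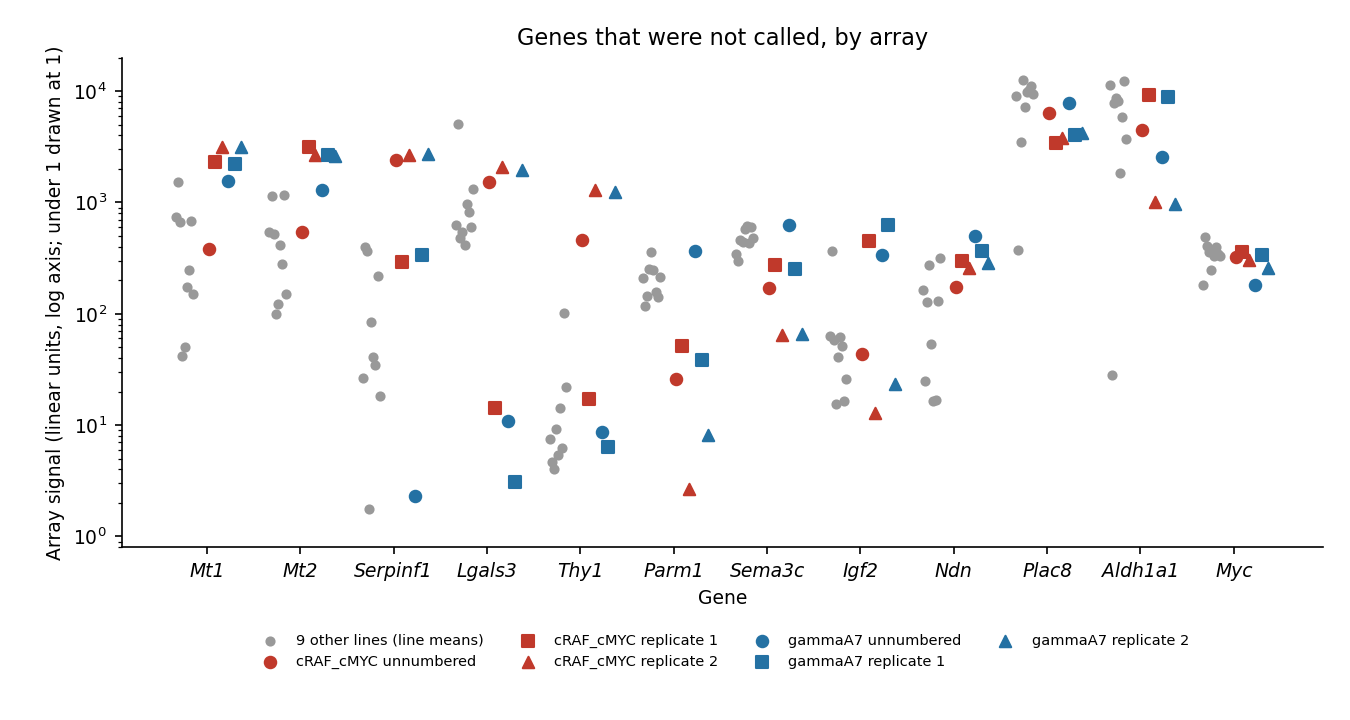
Signals of 12 named genes that were not called (linear units on a log axis), on each of the 6 arrays and as means of the 9 other lines. Mt1 and Mt2 are above all lines on 5 of 6 arrays, and Lgals3 is at 3.06 to 14.3 on 3 arrays and 1521 to 2098 on the other 3.

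The genes that varied most among the 6 arrays were Cck, Crabp1, Thy1, Lgals3, Saa3 and Serpinf1, with SDs of 2.51 to 3.44 on the log2 scale. Thy1, a surface glycoprotein of fibroblasts and T cells, gave 460, 17.0 and 1303 in cRAF_cMYC and 8.71, 6.35 and 1251 in gammaA7, against 4.03 to 101 in the lines. Its log2 difference of 2.11 (SE 0.39) missed the threshold with a limma adjusted p of 0.057. Serpinf1, which encodes the secreted antiangiogenic factor PEDF, gave 2414, 289 and 2652 in cRAF_cMYC and 2.31, 338 and 2735 in gammaA7, against 1.76 to 396. Both were brightest on the 3 arrays that carried Cck, but Serpinf1 was also at 289 and 338 on the replicate 1 arrays. The acute-phase gene Saa3 ran the other way, with 105, 1011 and 6.64 in cRAF_cMYC and 2966, 1177 and 2.08 in gammaA7, against 109 to 1776.

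Metallothioneins, small proteins that bind zinc and copper, were above all lines on 5 of 6 arrays without being called. Mt1 gave 386, 2317 and 3151 in cRAF_cMYC and 1548, 2236 and 3137 in gammaA7, against 41.5 to 1540 in the lines. Mt2 gave 542, 3129 and 2671 in cRAF_cMYC and 1306, 2661 and 2603 in gammaA7, against 99.7 to 1160. Only the unnumbered cRAF_cMYC array fell within the lines for either gene. The log2 differences were 2.49 (SE 0.97, limma adjusted p = 0.967) for Mt1 and 2.27 (SE 0.75, limma adjusted p = 0.708) for Mt2, and the lines themselves had SDs of 1.54 and 1.18. Adh7 was also above all lines on 5 arrays, but its low array was the unnumbered gammaA7 array. Over the 10 tested genes of metallothioneins and zinc transport, 0 were called (0.200% of all tested genes were) and the median log2 difference was 0.05.

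The lists of the transgenes' own pathways held no call. Over all 5496 tested genes 0.200% were called, so an absence of calls in lists this short says little about them. Myc gave 321, 361 and 302 in cRAF_cMYC and 181, 337 and 258 in gammaA7, against 183 to 491 in the lines (log2 difference -0.19, SE 0.27, limma adjusted p = 0.994). The labels do not say whether the array's Myc probe set reads the transgene. Of 7 tested genes of the Ras, Raf and ERK pathway 0 were called, with a median log2 difference of -0.0015 and a range from -0.13 (Araf) to 0.28 (Nras). Nras was above all lines on 5 arrays, with 989 to 1335 against 677 to 1100. Of 11 tested ERK output and feedback genes 0 were called. Their lowest was the phosphatase Dusp1, at 515, 279 and 208 in cRAF_cMYC and 1363, 257 and 182 in gammaA7, against 373 to 2231, and 4 arrays were below all lines (log2 difference -1.13, SE 0.44, limma adjusted p = 0.942). Dusp1 also belongs to the immediate early list, where 0 of 23 tested members were called and the medians were -0.75 and -0.47 on the replicate 2 arrays and 0.35 on the unnumbered gammaA7 array. Of 23 tested Myc target and nucleolar genes 0 were called, with a median of 0.06 and a maximum of 0.55 for lactate dehydrogenase, Ldha.

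Gene lists held few calls, 1 in each of 4 lists. They were Tnc among 18 tested fibrillar collagen and matrix genes, Fst among 21 of TGF-beta, BMP and Id signalling, Cxcl5 among 12 chemokines and cytokines, and Crabp1 among 9 aldehyde dehydrogenase and retinoid genes. For comparison, 0.200% of the 5496 tested genes were called, and the median log2 difference over all genes was -0.0033. Cxcl5 and Crabp1 met the filter only with pool arrays on which they were high. Their calls are descriptions and no support for a list. In the TGF-beta list 6 of 21 genes were positive, and the median of -0.13 stood beside the 3.04 of Fst. Among its other members, the activin subunit Inhba, which follistatin binds once assembled, gave -0.16 (SE 0.32) and the BMP target Id1 -0.67 (SE 0.29, limma adjusted p = 0.994).

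Fibroblast markers had the highest median among lists of at least 5 tested genes, 0.84, with 8 of 9 positive, 3 of them at least 2-fold (0.819% of all tested genes were) and 0 called. Thy1 led, followed by the receptor Pdgfra (1.48, SE 0.36, limma adjusted p = 0.247), which gave 657, 152 and 655 in cRAF_cMYC and 89.9, 135 and 535 in gammaA7, against 48.7 to 155 in the lines. The proteoglycan decorin, Dcn, gave 4085, 3119 and 4099 in cRAF_cMYC and 533, 2956 and 3512 in gammaA7, against 98.1 to 4893. Pdgfra followed the arrays of Cck, whereas Dcn was high on 5 arrays, and collagen Col1a1 differed by -0.02 (SE 0.31). The list's summed signal was 14112 to 20626 on the 6 arrays and 6337 to 26446 in the lines, so the ranges overlapped. The labels call these cells tumour lines, and the part of other cell types in the culture was not tested.

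Glycolysis genes were positive in 13 of 14 cases with a median of 0.34 and 0 called. Of 5487 tested genes with a chromosome, 49.3% were positive, and 0.200% of all tested genes were called. The glycolysis list's summed signal was 36628 to 45112 on the 6 arrays and 30134 to 41459 in the lines, so the ranges overlapped. Aldoa, the glycolytic aldolase, gave 2092, 3221 and 3630 in cRAF_cMYC and 3240, 3391 and 3621 in gammaA7, against 1628 to 2770 (log2 difference 0.62, SE 0.21, limma adjusted p = 0.734). The list's median was 0.35 to 0.47 on 5 arrays and 0.06 on the unnumbered cRAF_cMYC array. Sterol and fatty acid synthesis genes divided by replicate number instead, with medians of 0.84 and 0.80 on the replicate 2 arrays and -0.23 to 0.20 on the other 4. Fdps, which makes farnesyl diphosphate, gave 4307 and 5311 on the replicate 2 arrays and 1337 to 1838 on the others, against 760 to 1976 in the lines. None of its 21 tested list members was called, and the list's median over the pool was 0.23.

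The p53 target genes were negative in 10 of 10 cases, with a median of -0.24 and 0 called (0.200% of all tested genes were). Of 5487 tested genes with a chromosome, 49.3% were positive. The p53 list's summed signal was 6864 to 8836 on the 6 arrays and 6539 to 13697 in the lines, so the pool lay within the lines. The death receptor Fas gave -0.73 (SE 0.36), Mdm2 -0.39 (SE 0.30) and Cdkn1a, the cell cycle inhibitor p21, -0.25 (SE 0.38), each with a limma adjusted p of 0.994. The unnumbered gammaA7 array differed from the other 5 here, with a list median of 0.11 against -0.47 to -0.19. Interferon response genes had the lowest median of the lists with at least 5 tested genes, -0.36, with 10 of 14 negative and 0 called. The interferon list's summed signal was 3027 to 4640 on the 6 arrays and 3078 to 8295 in the lines, so the ranges overlapped. The list's median was negative on all 6 arrays, from -0.42 to -0.18, while antigen presentation genes had -0.29 over the pool.

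**Figure D4:**
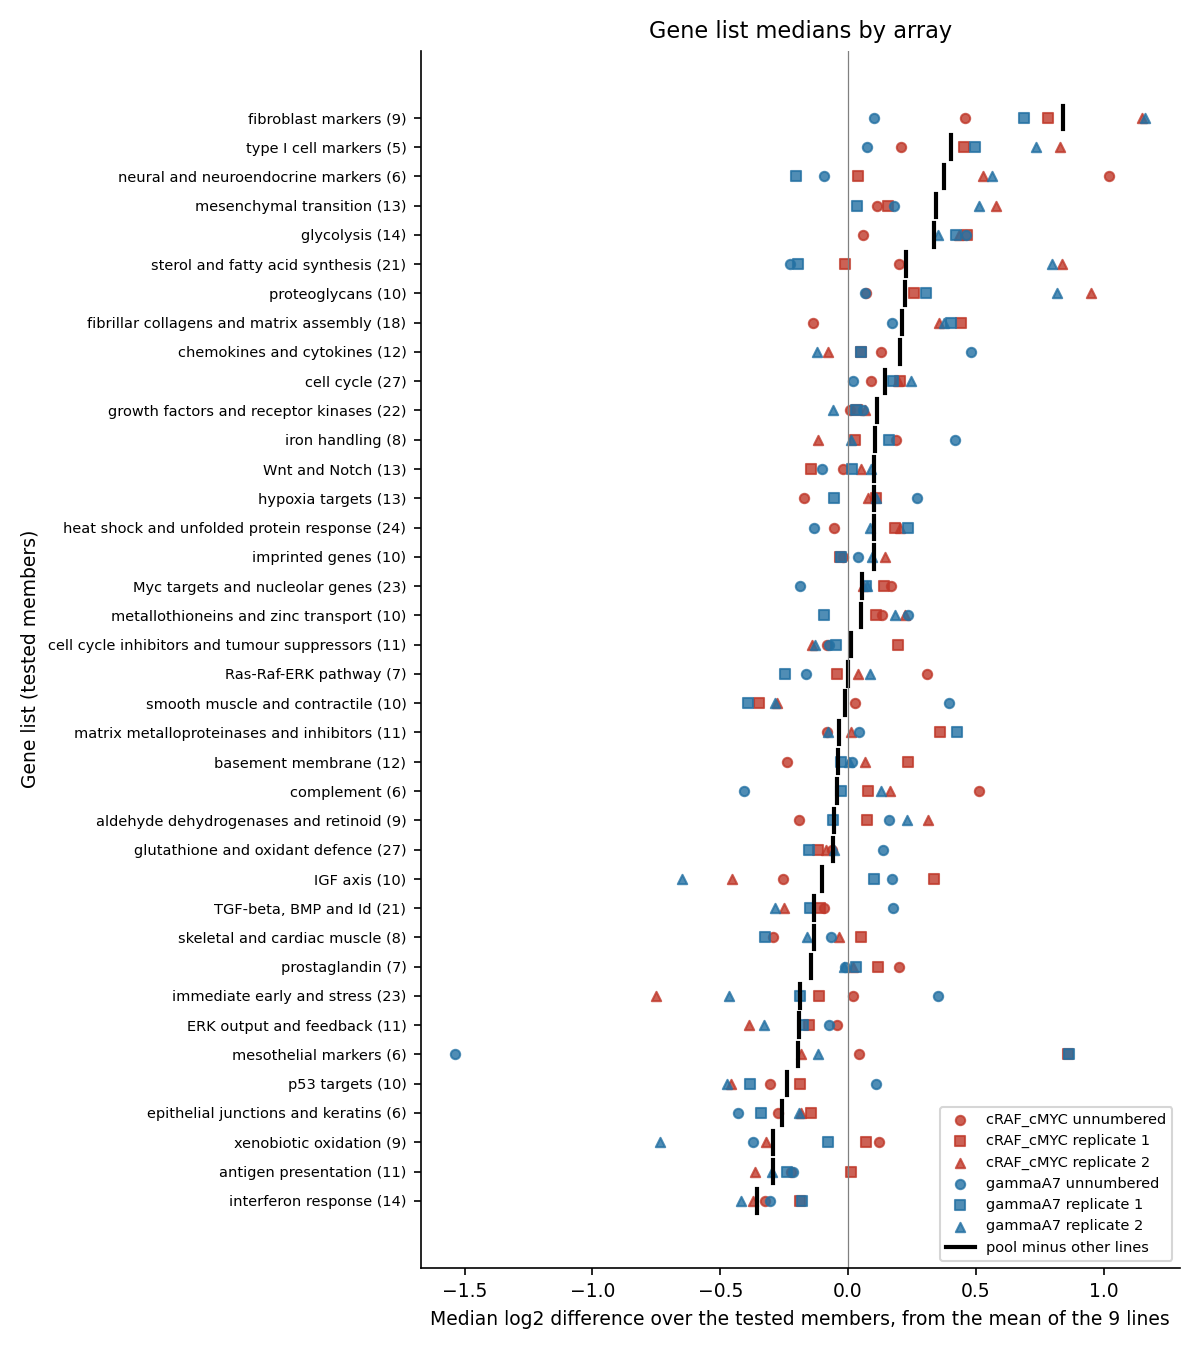
Median log2 difference from the mean of the 9 other lines over the tested members of each list with at least 5 (vertical axis: lists, number of tested members in brackets), for each of the 6 arrays (symbols) and for the pool contrast (black bar, the median of the members' pool differences). Fibroblast markers have the highest pool median (0.84) and interferon response genes the lowest (-0.36).

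Several other genes kept by the naming rule were bright on the replicate 1 arrays, and of those given here all but Clca3a1 were brightest there. Sfrp1, a secreted Wnt inhibitor, gave 69.9, 461 and 161 in cRAF_cMYC and 25.0, 512 and 135 in gammaA7, against 5.21 to 125 in the lines (log2 difference 1.80, SE 0.41, limma adjusted p = 0.18). Igf2, the imprinted fetal growth factor, gave 43.4, 455 and 12.9 in cRAF_cMYC and 334, 633 and 23.3 in gammaA7, against 15.5 to 363. Both were highest on the replicate 1 arrays, and Igf2 was low on the replicate 2 arrays. The basement membrane gene Nid2 was above all lines on the replicate 1 arrays and on the unnumbered gammaA7 array (1128, 1036 and 596, lines up to 521), and Clca3a1, a chloride channel regulator, reached 695, 670 and 1110 there, against 5.15 to 860. Keratin Krt19 gave 2902 and 2927 on the replicate 1 arrays, above the 1940 of the highest line, and 250 to 809 on the other 4.

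The imprinted gene Ndn, which restrains cell growth in neurons, was at 175 to 505 on the 6 arrays against 16.4 to 315 in the lines (log2 difference 1.45, SE 0.70, limma adjusted p = 0.994). Plac8 gave 3452 to 7822 and the retinal dehydrogenase Aldh1a1 972 to 9195, both within the ranges of the lines (376 to 12553 and 28.4 to 12345). Within the pool, Aldh1a1 was at 9195 and 8879 on the replicate 1 arrays and at 1019 and 972 on the replicate 2 arrays. Vegfc, a lymphatic growth factor chosen after its values were seen, was above all lines on 5 arrays with 119, 94.4 and 328 in cRAF_cMYC and 20.4, 71.7 and 234 in gammaA7, against 3.47 to 52.5 (log2 difference 1.37, SE 0.28, limma adjusted p = 0.0975).

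The remaining named genes of the lists were not called. Above all lines on 4 arrays were the prostaglandin E synthase Ptges (543, 121 and 648 in cRAF_cMYC, 320, 121 and 708 in gammaA7, lines 46.7 to 265) and the chaperone Pdia4 (407 and 620 on the numbered cRAF_cMYC arrays, 468 and 598 on those of gammaA7, lines 101 to 270). Muc1, one of 2 tested type II markers, gave 61.3 to 95.3 against 15.5 to 73.2 in the lines and 724 and 2885 in the controls. Stmn2, a neuronal microtubule regulator, was at 194 to 212 on the 3 arrays that carried Cck and at most 58.2 on the others (lines 7.18 to 51.9). On those same 3 arrays the complement receptor C3ar1 gave 89.1 to 142 (lines 18.9 to 45.8). Fgfr1 gave 581 and 496 on the replicate 2 arrays (lines 25.0 to 235). On the low side, smooth muscle actin Acta2 gave 1276 to 1355 on the numbered arrays, below the 2321 of the lowest line, and 3739 and 7934 on the unnumbered ones. Troponin Tnnt2 was below all lines on 4 arrays (20.4 to 36.8, lines from 36.9).

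Another way to read the pool is to ask which features all 6 arrays share. Of 7215 tested probe sets, 18 were above the highest line on all 6 arrays (0.249%) and 8 were below the lowest on all 6 (0.111%). In 14 genes the brightest tested probe set was among the 18, and 8 of the 14 are on chromosome 3, where 5.10% of the tested genes with a chromosome lie (RefSeq gene table). They are Krtcap2, Slc39a1, Cdc42se1, Ndufb5, Pygo2, Rap1gds1, Smc4 and Commd2, with differences of 0.28 to 0.63 on the log2 scale and limma adjusted p-values of 0.634 to 0.994. Slc39a1, a zinc importer, gave 531, 635 and 752 in cRAF_cMYC and 632, 736 and 633 in gammaA7, against 296 to 486 in the lines. Ndufb5, a subunit of respiratory complex I, gave 2218, 2378 and 2777 in cRAF_cMYC and 2570, 2550 and 3072 in gammaA7, against 1567 to 2131. These genes were picked for lying above all lines on all 6 arrays, so their common sign follows from the choice. Their differences were small. The 6 genes below all lines on all 6 arrays include S100a3, also on chromosome 3, at 63.2 to 97.8 against 101 to 164 in the lines (log2 difference -0.46). Among the others were the small heat shock protein Cryab, at 169 to 273 against 334 to 574, and the ERBB ligand Btc, at most 9.72 against 11.2 to 83.9.

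Chromosome medians, added after these genes were seen, were above those of most lines for chromosome 3 as a whole, with the 8 genes included. Over its 174 genes with a mean log2 level of at least 7.5, the median log2 difference from the mean of the 9 lines was 0.24, 0.22 and 0.39 on the cRAF_cMYC arrays and 0.23, 0.19 and 0.34 on those of gammaA7. The 9 lines had -0.14 to 0.21, the highest being A2C12 and the next 0.08. Of the 6 arrays, 5 exceeded every line and gammaA7 replicate 1 lay just under A2C12. In the pool contrast, 86.2% of the 174 genes were positive, against 48.9% of 3610 genes on all chromosomes. Single chromosomes varied widely in this share, with 85.7% on chromosome 7, 74.3% on chromosome 4, 21.3% on chromosome 14 and 15.8% on chromosome 13. Cut into 6 consecutive runs of 29 genes, the median over the 6 arrays was 0.23 to 0.30 in every run and that of the lines was -0.02 to 0.06. The highest line of a run had 0.16 to 0.33, above the lowest of the 6 arrays in each run and above their median in the first and second run. With all 280 tested genes of the chromosome, the arrays had 0.16 to 0.36 and the lines -0.07 to 0.17.

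Chromosome 7 behaved alike on 5 arrays (0.23 to 0.33, 231 genes) but not on the unnumbered cRAF_cMYC array (-0.04), and the lines had -0.09 to 0.26. Chromosome 13 was lowest of all in the pool contrast after chromosome 14, with medians of -0.23 to -0.10 on 5 arrays and 0.05 on the unnumbered cRAF_cMYC array, against -0.11 to 0.16 in the lines. Chromosome 16 divided the arrays instead, with -0.18, -0.25 and -0.36 on the 3 arrays that carried Cck and 0.07 to 0.16 on the other 3. Genes of 1 chromosome are not independent, DNA copy number was not measured here, and no test was made of these medians.

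**Figure D5:**
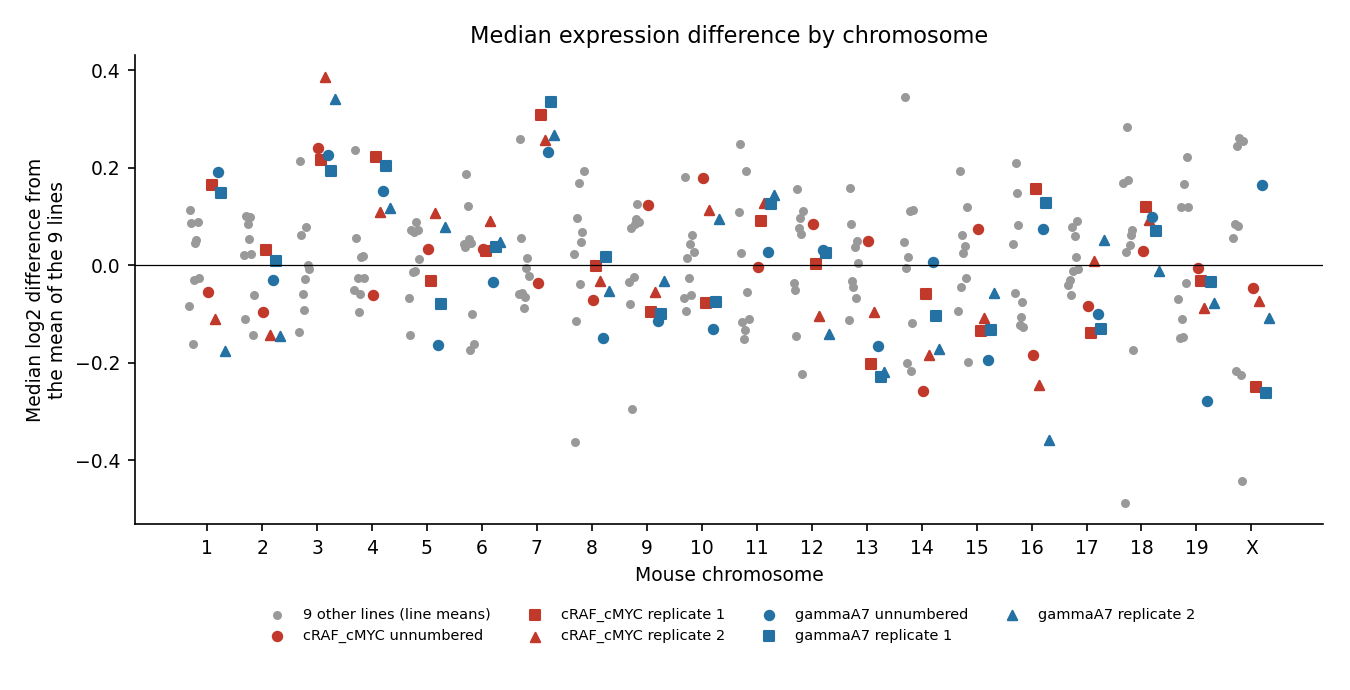
Median log2 difference from the mean of the 9 other lines (vertical axis) over the genes of each chromosome (horizontal axis) with a mean log2 level of at least 7.5, for the 6 arrays (red and blue) and the 9 lines (grey). On chromosome 3 the 6 arrays lie at 0.19 to 0.39 and the lines at -0.14 to 0.21.

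Numbered and unnumbered arrays differ within lines elsewhere in the study too, and 5 of the 9 lines have an unnumbered array alone. With only the unnumbered arrays of all 11 lines, 5 probe sets were called higher and 0 lower, 4 of them among the 12, with Cck at 3.05 and Fst at 3.53 in the log2 difference. In that subset Cck was at 2248 on the cRAF_cMYC array and at 15.9 on the gammaA7 array. Cck entered the test only through pool arrays, so its value there is a description and no support. With only numbered arrays, which leaves 6 lines, 0 probe sets were called in limma and 105 had an unadjusted p under 0.05. The median signal was 54.3 to 65.5 on the 6 arrays and 53.2 to 75.5 on the 22 tumour arrays, and the 3' to 5' actin ratio was 1.08 to 1.21 on the 6 arrays. Neither value set the 3 arrays that carried Cck apart.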

How the data were processed

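RNA of 11 tumour lines (22 arrays) and 2 control preparations was hybridised to an Affymetrix mouse array of 12488 probe sets. Deposited were linear intensity signals, made with GCOS per the submitters' processing notes, and their trimmed means are nearly equal on all arrays, so each array had been scaled. No source used here gives the background correction or filters. A difference is relative to the other RNAs of a sample. The number of arrays limits the precision. The p-values of the main fit cover the spread between the means of the 9 other lines, part of which may be technical. They do not cover the spread among the 6 arrays of the pool.

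The 66 control probe sets were left out. Of 12422 others, 10833 had 1 gene symbol, 396 several and 1193 none in the platform annotation. Signals were taken as log2(signal + 32), which compresses differences near the floor. A probe set was tested when 2 or more of 22 tumour arrays had it above their own median (7215 probe sets, 5496 genes, each gene by its brightest tested probe set). Arrays of a line were averaged. In limma 3.58.1 (R 4.3.3) each pool line had its own coefficient and the 9 others shared one (8 residual degrees of freedom). The contrast was the mean of the 2 minus the mean of the 9, so exchanging arrays within the pool changes nothing. On data simulated for this comparison over 7215 probe sets, 40% of changes of log2 size 1 and 94% of size 2 were called, with 5 calls among 7015 unchanged. The simulated pool lines had the spread of the 9 others. In the data, Cck had an SD of 3.44 over the 6 arrays against 0.14 over the lines. These rates need not hold for genes that vary so within the pool.

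The named genes are the 10 largest per direction among calls separated on all 6 arrays (filled to 10 by adjusted p from genes of at least 2-fold), up to 2 members per list, the 6 most variable in the pool, and Myc, Mt1, Mt2, Ndn, Clca3a1, Aldh1a1 and Plac8. Members, lists and rule were chosen with earlier results of these data known. Foxa2, Vegfc, Mgp, Eif2s3y, Kdm5d, Uty, Xist, Tcf21, Gli1, Inmt, Cd14, Ccl11, Actg2, Fas, Mdm2, Cdkn1a, Id1, Inhba, Col1a1, Sftpb, Sftpc, Scgb1a1, Lyz2, Araf, the genes beyond all lines on all 6 arrays and the chromosome medians were chosen after values were seen. Alternatives were other scalings, offsets, filters, thresholds, variance models, array subsets, a replicate block and leaving out each array or line.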

Additional observations from a re-analysis of the deposited data

Results flagged for a closer look

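For each of the 64 genes named by the rule, the level farthest from the others was looked for among the 6 arrays and among the 9 line means (128 sets of values), by Dixon's test. It marked 22 values, 7 among the arrays and 15 among the lines, where chance marks about 1 set in 20.

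Among the 6 arrays, the unnumbered gammaA7 array stood alone as highest for Parm1 (signal 364) and as lowest for the fibroblast gene Dcn (533), the matrix metalloproteinase Mmp3 (210) and Cd4 (9.74). The unnumbered cRAF_cMYC array stood alone as lowest for Mt1 (386) and Aldoa (2092), and cRAF_cMYC replicate 2 as highest for Perp (15.8). None of the 11 called genes is among these. The test looks for a lone value apart from the rest. It does not mark a gene that is high on several arrays and low on several, as most called genes were.

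Among the 9 other lines, A2C12 stood alone for 10 genes. It was highest for Crabp1 (47.0), Lgals3 (5091), Clca3a1 (860), Ldha (8543), Sfrp1 (125), Igf2 (363) and Pdk1 (121), and lowest for Eng (845), Aldh1a1 (28.4) and Plac8 (376). A2B1 stood alone as highest for Vamp5 (1392) and Ifit3 (309), gammaD1 for Cxcl5 (46.0) and Thy1 (101), and gammaB8 for Cck (18.4). The error of the comparison comes from these lines, and without A2C12 it called 30 probe sets higher and 5 lower.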

How the results depend on the processing

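The 12 calls higher and 0 lower depended on how the arrays were combined. Counts higher fell to 4 with an offset of 1, 1 with the stricter filter, 3 at a 4-fold threshold, 3 with the pool as 1 line, 2 with the 6 arrays as single units, and 5 with unnumbered arrays only. They were 0 in limma with numbered arrays only (105 at an unadjusted p under 0.05), with the line as random block (462), with numbered or unnumbered as a term (406) and with the replicate block (415). Counts lower were 2 with an offset of 1 and with line means weighted by their arrays, and 1 with a floor of 32, a 1.5-fold threshold or no fold threshold. Leaving out 1 array or line gave 3 to 30 higher and 0 to 5 lower. There were 30 without line A2C12, 26 without cRAF_cMYC replicate 1, 24 without the unnumbered gammaA7 array and 20 without gammaA7 replicate 1. There were 4 without cRAF_cMYC replicate 2, 3 without gammaA7 replicate 2 and 3 without line cRAF_cMYC. The causes were not tested, beyond fewer lines or genes in the subsets and filters.

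The replicate numbers were not used to pair the samples in the main fit. Deviations from the line means were correlated between arrays of the same number. The values were 0.014 to 0.69 for replicate 1, 0.062 to 0.71 for replicate 2 and -0.019 to 0.55 for unnumbered arrays. Compared with arrays of other lines, 14 of 17 arrays were closest to one of their own number, a hint from the data and not the design.

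Under quantile normalization and median centring 11 of the 12 calls remained. Scaling moved the median of all probe sets to -0.016 and -0.028. Over all named genes and alternatives, 2799 values kept their direction and side of the threshold, 163 lost and 27 gained a call, and 19 changed sign, none of them called. With unnumbered arrays only, the sign changed for Acta2 (0.28), Nqo1 (0.27), Cyp1b1 (0.19), Cd4 (-0.32) and Plac8 (0.13). With numbered arrays only it changed for Myc (0.020), Aldh1a1 (0.47) and Plac8 (0.27), with weighted line means for Aldh1a1 (0.16) and Plac8 (0.086), with the array kind as a term for the same genes (0.13 and 0.13) and with the replicate block for both (0.22 and 0.14). Leaving out arrays or a pool line changed it for Hp (range -0.86 to 0.30) and Aldh1a1 (range -1.04 to 0.15). Signals near the floor, as for Lhx8 and Ifi202b in the lines, limit how exactly a fold can be given.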
